A study of Mus musculus with 12 samples.

Results

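Serine, one-carbon and amino acid synthesis was described through a list of 10 genes, chosen by name with earlier results of these data known. The genes are Phgdh, Psat1, Psph, Shmt1, Shmt2, Mthfd2, Aldh1l2, Aldh18a1, Asns and Pycr1. Of these, 9 had a probe with their name on the array and 7 were above background on at least 2 of the 12 samples, out of 9318 genes that were tested in all. RNA came from mouse islet cells sorted for green fluorescent protein under the Pdx1 promoter, in heterozygous Pdx1-GFP animals crossed with ICR, and the fluorescent cells were taken as beta cells, the cells that make insulin. All samples share that strain and that sort, and the labels name no treatment. The embryonic stage E18.5 had 4 samples, postnatal day 1 (P1) 3, postnatal day 10 (P10) 2 and adults of 5 weeks 3. Each sample was hybridised to 1 Illumina array. Pdx1 is a transcription factor of the developing pancreas that stays on in beta cells and in some delta and progenitor cells, so the sort does not select beta cells alone. Whether a sample is 1 litter or pooled animals is not stated, and the p-values rest on the spread between samples alone, which may be partly technical.

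All 15 beta cell markers that could be tested, out of 19 listed, were above background on every adult and P10 sample, and at least 14 of them on each E18.5 and P1 sample. The samples also held RNA of other pancreatic cells. The summed intensity of 26 acinar markers, genes of the digestive enzyme cells, ran from 1415 to 4317 at E18.5, from 1706 to 8028 at P1, from 28428 to 75571 at P10 and from 37471 to 102788 in adults. On an array, from 42.0% to 47.3% of the probes lay above background. Levels are on the log2 scale after background correction and quantile normalization, differences are in log2 units (± SE), and p-values were adjusted in limma over all genes tested. Levels of different genes come from different probes and are not compared.

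Serine is made from a glycolytic intermediate by the successive enzymes PHGDH, PSAT1 and PSPH. The serine hydroxymethyltransferases SHMT1, in the cytosol, and SHMT2, in mitochondria, then pass a carbon unit of serine to folate, and the mitochondrial enzymes MTHFD2 and ALDH1L2 oxidise that unit further. ASNS makes asparagine from aspartate and glutamine, while ALDH18A1 and PYCR1 act at the first and last steps of proline synthesis from glutamate. Several of these genes are known targets of ATF4, a transcription factor whose translation increases when amino acids are scarce or the endoplasmic reticulum is under stress.

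All 7 measured genes were higher in adults than at P10, while from E18.5 to P1 and from P1 to P10 Mthfd2 alone passed the test. Because the list was chosen with earlier results of these data known, the shares of all genes beside these counts are a description. They are no test of the list. Between adults and P10, 13.3% of all genes tested passed, with 6.01% higher and 7.27% lower. For 6 of the 7 the adult rise was the only step that passed, as for 4.30% of all genes tested. The median difference of the 7 between adults and P10 was 1.23, against 0.00 over all genes tested. In 6 of the 7, every adult sample lay above every sample of the other ages, as did 9.71% of all genes tested. Phgdh was the exception. The moderated F-test over the 4 ages passed for all 7 and for 43.5% of all genes tested. Adults and P10 both had acinar RNA, with 3 of 26 acinar markers higher in adults and 0 lower. In a fit that held the mean acinar level as a covariate all 7 passed again, with differences from 0.68 for Shmt2 to 3.10 for Aldh1l2. That fit called 1116 of all genes tested between adults and P10, against 1237 without the covariate. In sorted samples taken in bulk, a change in the number of cells of a type and a change of RNA per cell cannot be told apart.

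**Figure D1:**
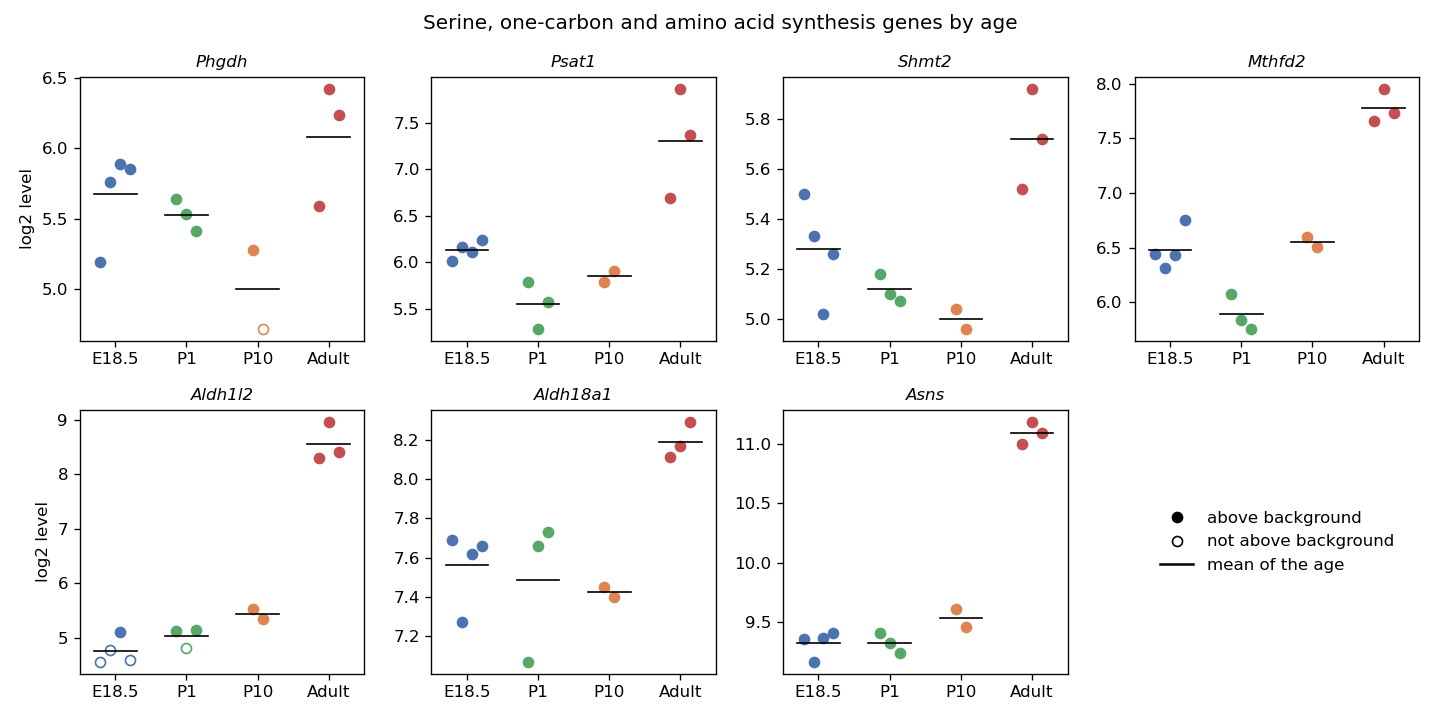
Log2 level of the 7 measured genes in each sample, with age from E18.5 to adult on the horizontal axis, 1 point per sample, open where the probe was not above background, and a bar at the mean of each age. Adult samples sit at the top for every gene except Phgdh, where adult replicate 1 at 5.59 lies among the E18.5 and P1 samples, and Aldh1l2 climbs furthest, to 8.31 and above.

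Serine synthesis itself was represented by Phgdh and Psat1. Phgdh encodes the dehydrogenase of the first step. Its levels were 5.19, 5.76, 5.89 and 5.85 at E18.5, 5.64, 5.53 and 5.41 at P1, 5.28 and 4.72 at P10, and 5.59, 6.42 and 6.24 in adults. Every adult sample was above both P10 samples, but adult replicate 1 was below 3 of the 4 E18.5 samples and 1 of the 3 P1 samples. P10 replicate 2 was not above background. Adults were 2.12-fold higher than P10 (1.09 ± 0.25, adjusted p = 0.0094, 3 adult and 2 P10 samples). Without P10 replicate 2, the sample below background, the difference was 0.81 with an adjusted p of 0.15. Against the earlier ages the adult difference did not pass, at 0.56 ± 0.22 over P1 (adjusted p = 0.061) and 0.42 ± 0.21 over E18.5 (adjusted p = 0.13). Without adult replicate 1 both passed, with an adjusted p of 0.0087 over P1 and 0.017 over E18.5.

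Psat1, the aminotransferase of the second step, had levels of 6.01, 6.17, 6.11 and 6.24 at E18.5, 5.79, 5.29 and 5.57 at P1, 5.79 and 5.91 at P10, and 6.69, 7.86 and 7.37 in adults. The adult samples spread over more than 1 log2 unit, and even the lowest of them was above all 9 younger samples. Adults were 2.74-fold higher than P10 (1.45 ± 0.24, adjusted p = 0.0013). Over P1 the adult difference was 1.75 ± 0.22 (adjusted p = 2.5e-05) and over E18.5 it was 1.17 ± 0.20 (adjusted p = 3.8e-04). All P1 samples lay below all E18.5 samples, with a difference of -0.58 ± 0.20 that did not pass (adjusted p = 0.11). It passed with array weights, with only P1 and E18.5 in the fit and without adult replicate 1, at adjusted p of 0.033, 0.029 and 0.029.

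Psph, the phosphatase that releases serine in the third step, was not above background on any sample. Its deposited intensities ran from 32.8 to 39.3, under background limits that ran from 40.3 to 47.2 over the arrays, so no difference could be measured and no fold is given. Shmt1 was also below the limit on all 12 samples, with intensities from 31.0 to 42.0, the highest of them in E18.5 replicate 1, whose limit was 42.8. Pycr1 has no probe named here. Of the genes that were kept, Aldh1l2 was above background on the fewest samples, 8 of 12.

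The one-carbon genes Shmt2, Mthfd2 and Aldh1l2 all encode mitochondrial enzymes. Shmt2, which splits serine to glycine, had levels of 5.50, 5.33, 5.02 and 5.26 at E18.5, 5.18, 5.10 and 5.07 at P1, 5.04 and 4.96 at P10, and 5.52, 5.92 and 5.72 in adults. The lowest adult sample was barely above the highest E18.5 sample. Adults were 1.65-fold higher than P10 (0.72 ± 0.15, adjusted p = 0.0052), 1.52-fold higher than P1 (adjusted p = 0.0025) and 1.36-fold higher than E18.5 (adjusted p = 0.011). A second, dimmer probe of Shmt2, above background on 3 of 12 samples, gave 0.26 ± 0.18 over P10 (adjusted p = 0.38) and 0.01 ± 0.16 over P1 (adjusted p = 0.96). It was above background on 1 of 3 adult, 0 of 2 P10 and 1 of 3 P1 samples, so it could not measure the difference. The call over P10 also ended without P10 replicate 2, and that over E18.5 without adult replicate 2 (adjusted p = 0.063). With the mean of the gene's kept probes the calls over P1 and E18.5 were both lost. With the mean acinar level as a covariate Shmt2 did not pass over P1 and differed by -0.04 over E18.5. With the mean of the cell cycle genes as an added term the calls over P10 and E18.5 were lost.

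Mthfd2, the dehydrogenase and cyclohydrolase that acts on the folate-bound carbon, was the measured gene that changed at every step. Its levels were 6.44, 6.31, 6.43 and 6.75 at E18.5, 6.08, 5.84 and 5.76 at P1, 6.60 and 6.51 at P10, and 7.66, 7.95 and 7.73 in adults. The P1 samples were below all others and the adult samples above all others, and neither group overlapped its neighbours. P1 was 1.51-fold lower than E18.5 (-0.59 ± 0.12, adjusted p = 0.016), the only call at birth among the 7 genes, where 5.39% of all genes tested passed, 2.55% higher and 2.83% lower. P10 was 1.58-fold higher than P1 (0.66 ± 0.15, adjusted p = 0.010), again the only call among the 7, where 11.5% of all genes passed, 5.48% higher and 6.05% lower. Adults were 2.34-fold higher than P10 (1.23 ± 0.15, adjusted p = 1.4e-04).

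Both early calls of Mthfd2 were lost when single samples were left out. The fall at P1 had an adjusted p of 0.086 when P1 replicate 2 was dropped and 0.064 when P1 replicate 3 was, and the rise at P10 had 0.1 and 0.053 when P10 replicates 1 and 2 were dropped. Cell cycle genes moved in the same directions at those steps, with 17 of 25 lower and 0 higher at P1 and 8 higher and 0 lower at P10, and opposite to Mthfd2 in adults, with 19 lower than at P10. With the mean of the cell cycle genes as an added term the difference at P1 was -0.31 (adjusted p = 0.68) and at P10 it was 0.48 (adjusted p = 0.16). Acinar markers moved with the second of these steps, with 24 of 26 higher at P10 than at P1 and a median of 3.86. With the mean acinar level as a covariate Mthfd2 passed at neither step, at -0.55 for P1 over E18.5 (adjusted p = 0.059) and 0.80 for P10 over P1 (adjusted p = 0.32). Most calls of other genes were lost too. Without added terms 502 of all genes tested passed at P1 over E18.5 and 1075 at P10 over P1. With the cell cycle term 1 and 505 passed, and with the acinar term 218 and 53. The cause of the early changes of Mthfd2 was not tested.

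Aldh1l2 encodes the mitochondrial enzyme that releases the folate-bound carbon as carbon dioxide while reducing NADP. It was dim before adulthood, with levels of 4.56, 4.78, 5.10 and 4.59 at E18.5, 5.13, 4.81 and 5.14 at P1, and 5.52 and 5.35 at P10, and bright in adults at 8.31, 8.96 and 8.41. Its probe was above background on 1 of 4 E18.5 samples, 2 of 3 P1 samples and both P10 samples. No younger sample came within 2 log2 units of an adult one. Adults were 8.70-fold higher than P10 (3.12 ± 0.20, adjusted p = 3.2e-07), which placed Aldh1l2 at rank 4 among the rises of all 9318 genes in that step. Over P1 the adult difference was 3.53 ± 0.18 (adjusted p = 4.3e-09) and over E18.5 it was 3.80 ± 0.17 (adjusted p = 6.4e-10). The smaller differences between the younger ages, 0.27 ± 0.17 at P1 over E18.5 and 0.41 ± 0.20 at P10 over P1, did not pass (adjusted p = 0.39 and 0.21).

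A second probe of Aldh1l2 was above background on the 3 adult samples alone, with a mean level of 6.78 in adults and 4.56 at P10. It put adults at least 3.80-fold above P10 (adjusted p = 7.6e-06). The bound sets the adult mean against the lowest level that counted as above background on each P10 array, or the probe's own level where that was higher. This probe passed the filter on low values through the adult samples alone, so its rise is a description and no further support.

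**Figure D2:**
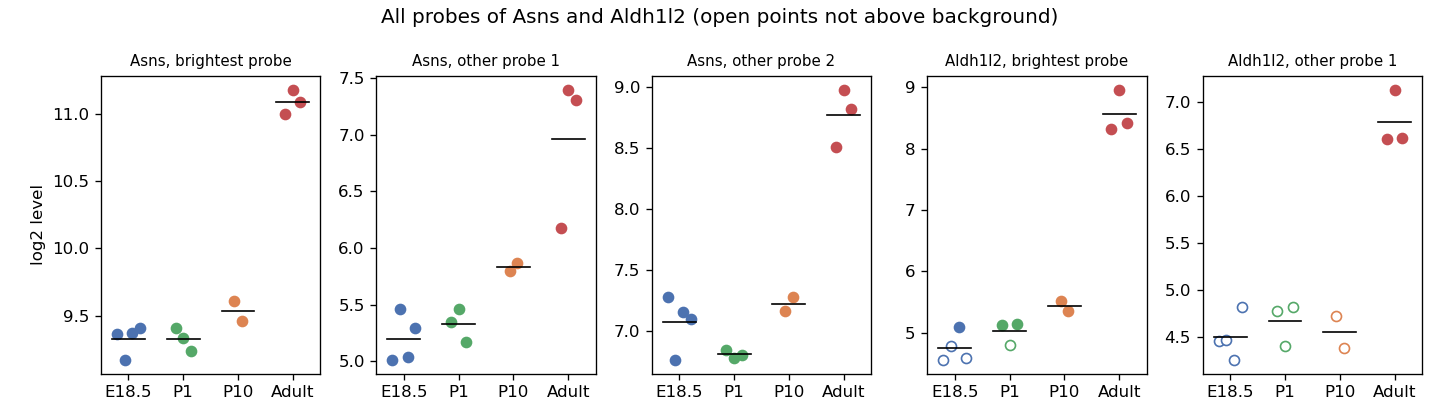
Log2 level of every probe of Asns and Aldh1l2 in each sample by age, 1 point per sample, with a bar at the mean of each age and open points where the probe was not above background. All 5 probes have their adult samples above every younger sample, and the last probe is open at all ages before adulthood.

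Asns, the asparagine synthetase gene, had levels of 9.36, 9.17, 9.37 and 9.41 at E18.5, 9.41, 9.33 and 9.24 at P1, 9.61 and 9.46 at P10, and 11, 11.18 and 11.09 in adults. The adult samples lay within 0.2 log2 units of each other and far above the rest. Adults were 2.94-fold higher than P10 (1.56 ± 0.12, adjusted p = 2.7e-06), 3.40-fold higher than P1 (1.77 ± 0.11, adjusted p = 2.4e-08) and 3.39-fold higher than E18.5 (1.76 ± 0.10, adjusted p = 1.1e-08). P1 and E18.5 had the same mean level of 9.33, and the 95% interval of their difference ran from -0.22 to 0.21. P10 differed from P1 by 0.21 ± 0.12, which did not pass (adjusted p = 0.30). The remaining probes of Asns gave adult differences over P10 of 1.13 ± 0.27 (adjusted p = 0.013) and 1.55 ± 0.16 (adjusted p = 3.2e-05), so all 3 probes called the rise.

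Promoters were compared among the genes with the largest rises in adults over P10, because they share that rise. Aldh1l2 has no entry in the promoter table, so Asns, Psat1 and Mthfd2 are shown. The core of the C/EBP-ATF response element, TGATGNAA, to which ATF4 binds together with C/EBP proteins, was searched on both strands in windows of 300 bases, from 250 before to 50 after each RefSeq start in GRCm38.p6. The core was found in 2 of 10 promoters of 9 listed genes, those of Asns and of Pycr1, and in 3.97% of 32841 promoters of all genes. Pycr1 was not measured, and Psph and Shmt1 were below background, so no rise in adults is known for them. Among the measured genes with a promoter entry, Asns alone held the core. The motif CCAAT, bound by NF-Y, was found in 6 of the 10 and in 37.4% of all, and the E-box CACGTG in 1 of the 10, that of Aldh18a1, and in 7.15% of all. No match in the listed genes overlaps a match to another motif. The 120 bases before the start are given 5′ to 3′ on the minus strand, which carries all 3 genes, for Asns (chr6:7693210-7693329) with the response element core in capitals, and for Psat1 (chr19:15925060-15925179, the first of 2 starts listed) and Mthfd2 (chr6:83317605-83317724) with CCAAT, or its reverse complement, in capitals.
Asns: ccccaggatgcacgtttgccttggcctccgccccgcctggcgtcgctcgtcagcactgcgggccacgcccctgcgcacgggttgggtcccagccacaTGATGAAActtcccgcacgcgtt
Psat1: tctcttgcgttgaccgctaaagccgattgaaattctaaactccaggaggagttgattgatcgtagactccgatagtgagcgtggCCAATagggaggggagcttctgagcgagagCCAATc
Mthfd2: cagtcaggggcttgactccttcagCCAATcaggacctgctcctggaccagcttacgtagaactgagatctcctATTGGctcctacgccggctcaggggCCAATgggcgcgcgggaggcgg
In Asns the core begins 23 bases before the start. Psat1 and Mthfd2 rose in adults as Asns did, and their windows hold no TGATGNAA. A match is a description of these letters, and no match says only that they are not in this window.

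Aldh18a1, which encodes the bifunctional enzyme that starts proline synthesis, had levels of 7.69, 7.27, 7.62 and 7.66 at E18.5, 7.07, 7.66 and 7.73 at P1, 7.45 and 7.40 at P10, and 8.11, 8.17 and 8.29 in adults. Replicate 2 of E18.5 and replicate 1 of P1 stood below the others of their age, and all adult samples were above all others. Adults were 1.70-fold higher than P10 (0.77 ± 0.18, adjusted p = 0.012), 1.63-fold higher than P1 (adjusted p = 0.0037) and 1.55-fold higher than E18.5 (adjusted p = 0.0043). Leaving out either P10 sample ended the call over P10, at an adjusted p of 0.066 when replicate 1 was dropped and 0.096 when replicate 2 was. The earlier steps were -0.07 ± 0.15 and -0.06 ± 0.18, with 95% intervals from -0.40 to 0.25 and from -0.45 to 0.32.

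**Figure D3:**
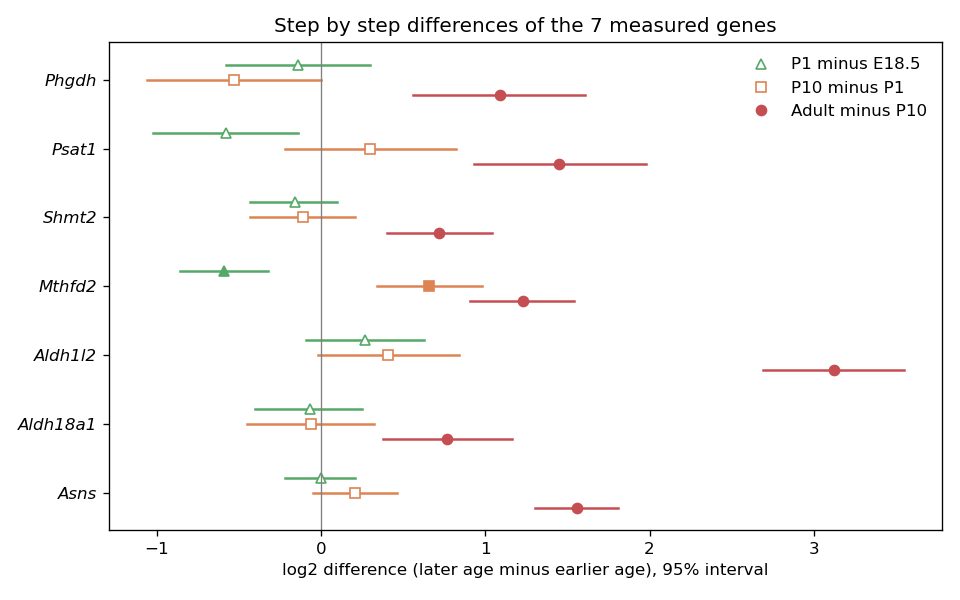
Log2 difference of each measured gene in the 3 successive steps, with 95% intervals and filled symbols where the adjusted p passed. The step from P10 to adult is filled for all 7 genes, and the 2 earlier steps are filled for Mthfd2 alone.

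Adults were also set against P1 and E18.5, and these comparisons share the adult samples. Over P1, 6 of the 7 genes were higher and Phgdh did not pass, where 37.3% of all genes tested passed, 17.7% higher and 19.6% lower. Over E18.5, 6 were again higher and Phgdh did not pass, where 40.4% of all genes passed, 18.6% higher and 21.9% lower. The median difference of the 7 was 1.75 over P1 and 1.17 over E18.5, and that of all genes tested was -0.01 in both. Acinar RNA differed between the groups of these comparisons, with 25 of 26 markers higher in adults than at P1 and 26 of 26 higher than at E18.5. With the mean acinar level as a covariate, 3 of the 7 passed over P1, namely Mthfd2, Aldh1l2 and Asns, and 2 passed over E18.5, namely Aldh1l2 and Asns. That fit called 417 of all genes tested over P1 and 165 over E18.5.

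Among the adult samples the genes ran in a similar order. Replicate 1 was the lowest of the 3 for all 7 genes, and replicate 2 was the highest for 6 of them. This order was not counted over all genes tested, so it cannot be called particular to these genes. The mean level of the 7 genes was 7.55 in adult replicate 1, 8.07 in replicate 2 and 7.83 in replicate 3, against 6.47 and 6.33 in the P10 samples. The mean level of the acinar markers followed the same order in adults, at 9.79, 11.12 and 10.04, while at P10 it was 10.67 and 9.25. P10 replicate 1 had a higher acinar mean than adult replicates 1 and 3, and a mean level of the 7 genes more than 1 log2 unit below both. P10 replicate 2 had a lower acinar mean than every adult sample. The part of acinar RNA in the spread among adults and in their difference from the P10 samples was not tested.

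**Figure D4:**
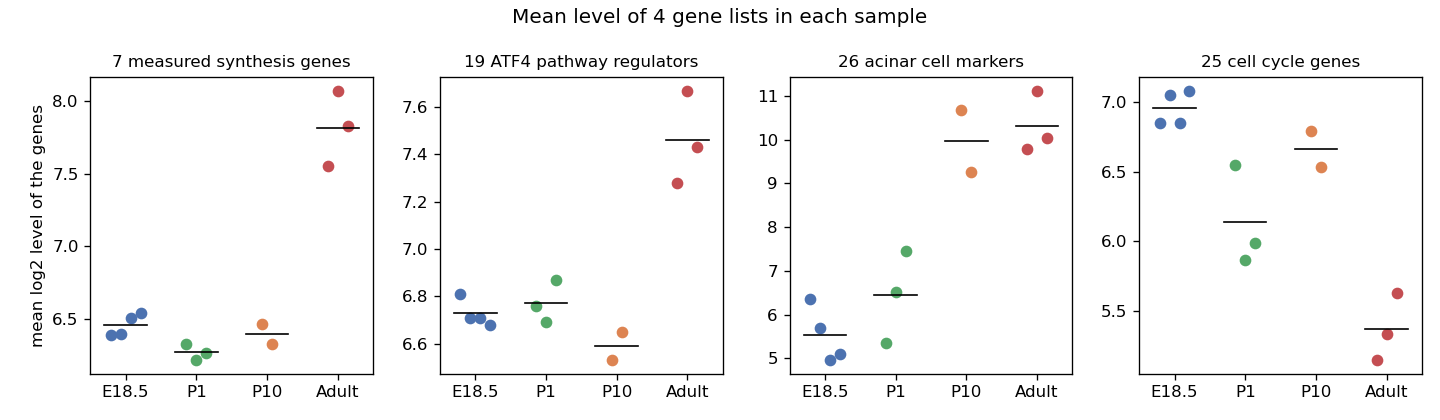
Mean log2 level of 4 gene lists in each sample by age, 1 point per sample, with a bar at the mean of each age. The 7 measured synthesis genes and the ATF4 regulators are high in adults alone, acinar markers are high at P10 and in adults, and cell cycle genes are lowest in adults.

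Cell cycle genes fell in adults as the synthesis genes rose, with 19 of 25 lower than at P10, a median of -1.26, and a mean level from 5.15 to 5.63 in adults against 6.53 to 6.79 at P10. With their mean as an added term, 3 of the 7 genes passed between adults and P10, namely Mthfd2 at 1.67, Aldh1l2 at 3.32 and Asns at 1.75. Of all genes tested, 45 passed with that term and 1237 without it. In that fit the difference of Aldh18a1 was 0.11 (adjusted p = 0.95) and that of Shmt2 0.97 (adjusted p = 0.29), and those of Phgdh and Psat1 were larger than without the term, at 2.00 and 2.33, and did not pass (adjusted p = 0.12 and 0.076). Markers of other cells were also set between adults and P10. Of 8 markers of other islet hormone cells tested, 1 was higher and 0 lower, with a median difference of -0.93, a mean level from 8.70 to 10.24 in adults against 10.23 to 10.64 at P10, and summed intensities from 21610 to 45257 in adults against 39070 to 45203 at P10. Of 7 duct markers tested 1 was lower and 0 higher, with a median of -0.19, and of 15 beta cell markers 1 was higher and 0 lower. Of 11 endothelial and stromal markers tested with limma, 0 passed and 0 had an unadjusted p under 0.05, with a median of -0.53. Their part in the results was not tested.

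Other genes of the pathway were set between adults and P10, where 6.01% of all genes tested were higher and 7.27% lower. Of 14 further folate and one-carbon genes tested, out of 26 listed, 1 was higher and 1 lower in adults than at P10, with a median of 0.07. These counts are close to the shares over all genes tested. Tyms, thymidylate synthase, which uses folate-bound carbon for DNA synthesis, was 2.40-fold lower (adjusted p = 7.6e-04). Slc46a1, a folate transporter, was 1.45-fold higher (adjusted p = 0.033), a call that ended in 8 of 25 alternatives. Of 12 genes that use serine, glycine or methionine, 4 were higher and 0 lower, with a median of 0.16. Cbs, which joins serine to homocysteine, was 3.24-fold higher (1.70 ± 0.16, adjusted p = 1.1e-05). Gnmt, which methylates glycine, was 2.50-fold higher, Mat1a, a methionine adenosyltransferase gene, 1.91-fold and Mat2b, for a regulatory subunit of such an enzyme, 1.38-fold. The call of Mat2b over P10 ended in 14 of 25 alternatives and that of Mat1a in 2. Cbs and Mat2b were already higher at P10 than at P1. For Cbs, above background on no P1 sample, that rise was at least 1.27-fold (adjusted p = 0.0024), and for Mat2b it was 1.56-fold (adjusted p = 0.0091).

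Among 16 enzymes of glutamate, proline, aspartate and arginine, 3 were higher and 2 lower in adults than at P10, with a median of 0.02. Of all genes tested, 6.01% were higher and 7.27% lower in that step. Oat, ornithine aminotransferase, whose reaction meets the proline pathway at the product of ALDH18A1, had levels of 6.28, 6.66 and 6.59 in adults against 8.89 and 9.15 at P10, and was 5.69-fold lower (-2.51 ± 0.23, adjusted p = 1.1e-05). Ass1, argininosuccinate synthase, was 1.81-fold lower. The aminotransferase genes Gpt2 and Bcat2 were 1.87-fold and 1.82-fold higher, Gpt2 from a probe above background on 1 of 2 P10 samples, and Bcat1, not above background at P10, was at least 1.54-fold higher (adjusted p = 0.0025). Bcat1 was above background on 1 E18.5 sample and the 3 adult samples, so it passed the filter on low values through the adults.

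Of 12 amino acid transporters tested, 3 were higher and 2 lower in adults than at P10, with a median of 0.22. The shares of all genes tested were 6.01% higher and 7.27% lower. Slc1a4, a carrier of serine, alanine and other small neutral amino acids, had levels of 6.83, 6.92 and 7.22 in adults against 5.40 and 4.97 at P10, and was 3.48-fold higher (1.80 ± 0.16, adjusted p = 9.4e-06). Slc6a9, a glycine carrier, was 2.20-fold higher. Slc3a2, the shared heavy chain of several carriers, was 1.51-fold higher, with a call that ended in 6 of 25 alternatives. Slc38a5, a glutamine and serine carrier, was 3.25-fold lower (adjusted p = 2.0e-04). Its call ended with the mean of the cell cycle genes as an added term. Slc38a5 had already fallen from P1 to P10, a step that also passed. Its levels were 12.53, 12.53 and 12.57 at P1 and 10.03 and 10.22 at P10.

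Of 19 ATF4 pathway regulators, 8 were higher and 0 lower in adults than at P10, with a median of 0.41. The shares of all genes tested were 6.01% higher and 7.27% lower. Nupr1, a stress-induced regulator of transcription, was 21.3-fold higher (4.41 ± 0.25, adjusted p = 1.2e-07), the largest rise of all genes tested. Chac1, which degrades glutathione, was next at 14.3-fold (3.84 ± 0.31, adjusted p = 3.6e-06). The transcription factor gene Atf5 had levels of 11.32, 11.25 and 11.29 in adults against 9.18 in both P10 samples (2.11 ± 0.12, adjusted p = 1.2e-07). Atf5 and Nupr1 were already higher at P10 than at P1, with calls that ended in 3 of 25 alternatives each. Eif4ebp1, a repressor of translation initiation, had levels of 8.19, 9.09 and 8.82 in adults against 6.31 and 6.18 at P10 (2.46 ± 0.21, adjusted p = 5.0e-06). It was 2.13-fold lower at P10 than at P1 (adjusted p = 0.0038). Atf3 had levels of 8.28, 7.21, 6.98 and 6.15 at E18.5 and, below background, of 4.81, 4.67 and 4.41 in adults. Stc2 had levels of 5.69, 5.76, 5.63 and 5.65 at E18.5 against 5.00, 5.14 and 5.18 in adults. Over P1, 9 of the 19 regulators were higher and 4 lower in adults, where 17.7% and 19.6% of all genes tested were. Over E18.5, 10 were higher and 3 lower, where 18.6% and 21.9% of all genes were. Of 17 cytosolic aminoacyl-tRNA synthetases, which load amino acids onto tRNA, 5 were higher and 0 lower in adults than at P10, with a median of 0.20. Among all genes tested 6.01% were higher and 7.27% lower in that step. Mars1, for methionine, was 2.88-fold higher, Nars, for asparagine, 2.05-fold, Iars, for isoleucine, 1.91-fold, Aars, for alanine, 1.84-fold and Sars, for serine, 1.69-fold. With the mean of the cell cycle genes as an added term, 9 of the 24 named pathway genes that passed between adults and P10 passed again, and with the acinar level 23 did.

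**Figure D5:**
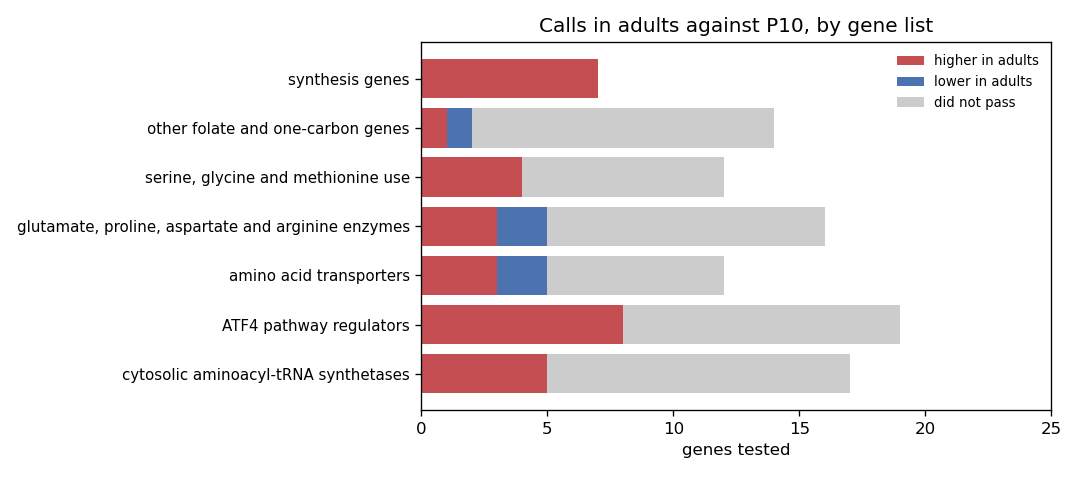
Number of tested genes in each list that were higher, lower or did not pass in adults against P10, as stacked bars from 0. All 7 measured synthesis genes are higher, while the other lists range from 1 of 14 higher for folate and one-carbon genes to 8 of 19 for ATF4 regulators.

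Across the 12 samples, which include the same 3 adult samples for every gene, the measured genes had profiles alike to different degrees. By Pearson r the closest pair was Aldh1l2 and Asns, with r = 0.99 and a Spearman rho of 0.80. By rho the pairs of Mthfd2 with Psat1 and with Asns were closer, both at 0.85. By r Phgdh was the least like the others, with values from 0.53 with Aldh18a1 to 0.72 with Psat1. Outside the list, the genes most like Aldh1l2 by Pearson r were Nupr1 (r = 0.992), Atf5 (r = 0.987) and Mapk10 (r = 0.983). Those most like Asns were Ddx25 (r = 0.989), Gnmt (r = 0.987) and Atf5 (r = 0.987), with Spearman rho from 0.699 to 0.825 for these 3. The closest to Phgdh were Eif4ebp1 and Cers2 (both r = 0.884) and Cnst (r = 0.875). For the remaining genes the closest was Terf2 for Psat1 (r = 0.941), Tnnt1 for Shmt2 (r = 0.915), Adam32 for Mthfd2 (r = 0.966) and Arfgap3 for Aldh18a1 (r = 0.954). None of the 3 genes closest to Psat1, Shmt2, Mthfd2 or Aldh18a1 was among the listed ATF4 regulators.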

How the data were processed

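The values were the intensity of 25697 probes on each of 12 arrays, as the authors deposited them, in linear units. Labelling used an Illumina amplification kit, per the labels' protocols, while the scanner software and any scaling or background subtraction are not stated in these sources. A second table of 24 columns, whose names match no sample, was not used. The normexp model (offset 16) and quantile normalization were applied, then log2. A probe was above background where it exceeded the limit at a p of 0.01, set from the mode of the array's signals and the spread below it. Probes above background on at least 2 samples were kept (13391), and the brightest per gene was used. Of all probes, 23978 carried 1 symbol, none several (0), and 1719 no name here. IDs of 23962 were found in the RefSeq table (GRCm38.p6), used for names. The highest share of identical values in a pair of samples was 0.95%.

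Genes were tested with limma 3.58.1 in R 4.3.3 (lmFit and eBayes, all 12 samples, age as the factor, Benjamini-Hochberg, threshold 0.05). The fit was tested on simulated data whose noise was independent between genes. Those data lack the shared acinar and cell cycle variation of the samples. Intervals are 95% from the moderated fit. The number of arrays limits the precision. The members, pathway lists, marker lists and motifs were chosen with earlier results of these data known. From each pathway list the 6 genes with the smallest F-test p were taken. Those that passed between adults and P10 are named, and of the rest only Atf3 and Stc2. The 3 genes most like a member were taken by Pearson r. Alternatives covered background, scaling, probe filters, probe choice, eBayes settings, weights per array, a block for the replicate number, added terms, fits of only the ages compared, and each sample left out. Plots used matplotlib 3.10.9 (Python 3.11.15).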

Additional observations from a re-analysis of the deposited data

Results flagged for a closer look

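At E18.5, replicate 2 had an Aldh18a1 level of 7.27, apart from the other replicates at 7.69, 7.62 and 7.66. Its gap to the nearest of them was 0.841 of the whole range of the 4 samples. Chance sets about 1 in 20 such groups of samples apart, and 7 genes were looked at.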

How the results depend on the processing

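Of the 21 differences of the 7 measured genes that passed, other background corrections, scalings, filters, probe means, eBayes settings, array weights, the replicate block and fits of only the ages compared gave 231 values, of which 228 kept their direction and side of the threshold and 3 lost the call. The 3 were those of Mthfd2 at P1 over E18.5 under the block and of Shmt2 in adults over P1 and E18.5 with probe means. Leaving out each sample in turn gave 252 values, with 243 kept and 9 lost. Same-numbered samples had residual correlations from -0.07 to 0.28, with 4 of 15 pairs over 0.1. Differently numbered pairs were not compared, so these values cannot show whether the numbers pair the samples. The main fit has no block. With the replicate number as a block, 0 of the 7 genes passed at P1 over E18.5, with 215 genes in all against 502 without the block, and Aldh18a1 differed by 0.01 at P10 over P1 and Asns by 0.02 at P1 over E18.5, signs opposite to those without it. The call lost under the block was that of Mthfd2, at -0.50 with an adjusted p of 0.054.

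With the acinar level as a covariate, 1308 genes passed over the 4 ages against 4050 without it, 218 at P1 over E18.5, 53 at P10 over P1, 417 in adults over P1 and 165 in adults over E18.5, against 502, 1075, 3479 and 3767. The measured genes that passed numbered 0, 0, 3 and 2 in these 4 comparisons, against 1, 1, 6 and 6. In adults over P10, 1116 genes passed against 1237 without the covariate, and all 7 measured genes passed in both. Shmt2 then differed by -0.04 and Aldh18a1 by -0.01 between adults and E18.5. With the cell cycle level, 2393 genes passed over the 4 ages, 1 at P1 over E18.5, 505 at P10 over P1, 45 in adults over P10 (1237 without it), 1290 in adults over P1 and 165 in adults over E18.5. The measured genes that passed numbered 0 at P1, 0 at P10, 3 in adults over P10, 6 in adults over P1 and 3 in adults over E18.5. Under that term Phgdh differed by 0.44, Shmt2 by 0.00 (rounded, positive) and Asns by 0.12 at P1 over E18.5, Psat1 by -0.05 and Aldh18a1 by 0.20 at P10 over P1, and Aldh18a1 by -0.18 between adults and E18.5, all with the sign turned. The cause was not tested.

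Array weights gave 2 measured genes and 986 genes at P1 over E18.5, with Aldh18a1 at 0.01 and Asns at 0.00 (rounded, positive), and a fit of only P1 and E18.5 gave 2 measured genes. Another probe of the gene gave 0.09 for Shmt2 and 0.12 for Asns at P1 over E18.5, and -0.11 for Aldh1l2 at P10 over P1. Leaving out single samples gave 0 to 2 measured genes and 114 to 599 genes at P1 over E18.5, the lowest without P1 replicate 2, and 0 to 1 and 392 to 1183 at P10 over P1, the lowest without P10 replicate 1. In adults over P10 it gave 4 to 7 and 513 to 1296, the lowest without P10 replicate 2. In the same fits Aldh18a1 ranged from -0.20 to 0.13 at P1 over E18.5 and from -0.27 to 0.06 at P10 over P1, and Asns from -0.06 to 0.04 at P1 over E18.5. Of the 999 values of named pathway differences, 886 kept their call, 113 lost it and 0 turned sign. With 2 samples at P10, every comparison with that age rests on few arrays, and dim probes such as those of Aldh1l2 before adulthood lie near background.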
